A study of Mus musculus with 22 samples.

Results

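Vomeronasal receptors are the chemoreceptors with which a mouse detects pheromones. They fall into 2 families, Vmn1r and Vmn2r, and the genes described here are those on chromosomes 1 to 19 whose symbol starts with Vmn1r or Vmn2r and whose extent, widened by 2000 bp on each side, overlapped a region of the H3K9me3 or the H3K27ac table of the C3 and OSKM cells. This gave 216 of the 623 such genes on these chromosomes. Of the 645 in the annotation, the remaining ones are elsewhere and were not used. The genes were chosen by position and not by how their signal differed between cells. Closest to the limit, Vmn1r85 (1952 bp) and Vmn2r-ps81 (1966 bp) were taken, while Vmn2r-ps68 (2003 bp) and Vmn1r-ps131 (2017 bp) were not.

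Each mature vomeronasal sensory neuron expresses very few receptor genes, and elsewhere in the body these genes are silent. Vmn1r receptors have a short extracellular end and a coding sequence in a single exon, while Vmn2r receptors have a long extracellular domain and several coding exons. Both families lie in large arrays, many of whose copies have decayed to pseudogenes. H3K9me3 is a histone mark of heterochromatin and is known to cover silent receptor clusters, while H3K27ac marks active promoters and enhancers.

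The series measured both marks by chromatin immunoprecipitation with sequencing in induced pluripotent stem (iPS) cells made from C57BL/6 mouse embryonic fibroblasts. C2 cells were transduced with the zinc-finger artificial factors ZFATF1, ZFATF2 and ZFATF3 together with Sox2, Klf4 and c-Myc, C3 cells with ZFATF1, ZFATF2 and ZFATF4 and the same trio, and OSKM cells with Oct4, Sox2, Klf4 and c-Myc. All 3 kinds of iPS cell carry an Oct4-linked MerCreMer with a Tomato/GFP reporter and were given 100 nM 4-hydroxytamoxifen. A further 4 libraries came from immunoprecipitation of the HA tag of the artificial factors, 2 from C2 cells at day 20 of transduction, which are not fully reprogrammed, and 2 from cells given an empty vector (Empty) with Sox2, Klf4 and c-Myc. Each group had 2 libraries. Nothing in the labels says that they came from separate cultures or clones, so p-values measure the spread between these samples, which may be technical. The factor set goes with the cells that received it, so the factors and the line cannot be told apart, and C3 had its own input samples while C2 and OSKM shared theirs.

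Libraries kept 28947967 to 33760862 tags for H3K27ac, 29264090 to 46304808 for H3K9me3 and 1629753 to 3896935 for HA. The labelled cell type was checked on H3K27ac regions. All 8 pluripotency markers had one (Pou5f1, Nanog, Sox2, Zfp42, Dppa5a, Esrrb, Tdgf1 and Utf1), against 4 of 6 fibroblast markers. Of these 4, Postn stood at 1 read in every library and was not tested. Of the 3 tested (Col1a1, Prrx1 and Thy1), 0 changed. In the comparison of C2 with OSKM, those 3 had 9.14 to 49.6 normalised reads and the pluripotency markers 649 to 7187. In that of C3 with OSKM the ranges were 9.93 to 51.6 and 1213 to 7885. These reads are not scaled to the width of the region. In C2, 5 of the 8 were lower than in OSKM and in C3 1 was, while among 4 endoderm markers 2 were higher in C2 and 3 in C3. Of all H3K27ac regions, 5.33% were lower and 5.20% higher in C2, and 8.52% and 13.5% in C3. The C2 calls at Esrrb, Nanog, Pou5f1 and Sox2 were lost without either OSKM library and after quantile normalization, that of Zfp42 in C3 without either OSKM library, and those of Foxa2 and Gata4 in C2 without C2 replicate 1. Zfp42 in C2 and Foxa2, Gata4 and Gata6 in C3 kept theirs under every alternative run. Of 6 markers of vomeronasal and olfactory sensory neurons, 5 had an H3K27ac region. Of these 1 (Adcy3, also used in other cells) was higher in both, with calls lost without either OSKM library. Gng8, Omp, Trpc2 and Ncam2 were not called, with log2 differences of -0.15, -0.18, -0.58 and -0.24 in C2. In C3 they were -2.62, -2.52, -0.64 and 0.28, with 1.67 normalised reads at Gng8 in C3 replicate 1 and 1.09 at Omp in replicate 2. OSKM cells stood apart on chromosome 8, where the median log2 difference of H3K9me3 was -0.99 for C2 and -0.83 for C3, against -0.12 and -0.03 on the other autosomes. For H3K27ac it was -1.33 and -1.09 there, against 0.05 and 0.08, and 35.4% and 38.2% of the regions tested on the chromosome were lower. Zfp42 lies there too, so its lower H3K27ac cannot be told apart from that of the chromosome. Of the receptor genes, 4 lie there. The part of these differences in what follows was not tested, beyond the counts given without chromosome 8.

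A region within reach was more frequent for Vmn2r, with 136 of 251 genes (54.2%), than for Vmn1r, with 80 of 372 (21.5%). The families also differ in length, with a median extent of 16059 bp for Vmn2r and 921 bp for Vmn1r, so a Vmn2r gene offers more sequence to overlap, and the part of length was not tested. Among coding genes 75 of 123 Vmn2r and 36 of 231 Vmn1r had a region, and among pseudogenes 61 of 128 and 44 of 141. For comparison, 246 of 1420 olfactory receptor genes had one. Most of the genes are on chromosomes 7 (66 of 281), 13 (34 of 89), 17 (33 of 78) and 6 (30 of 96).

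**Figure D1:**
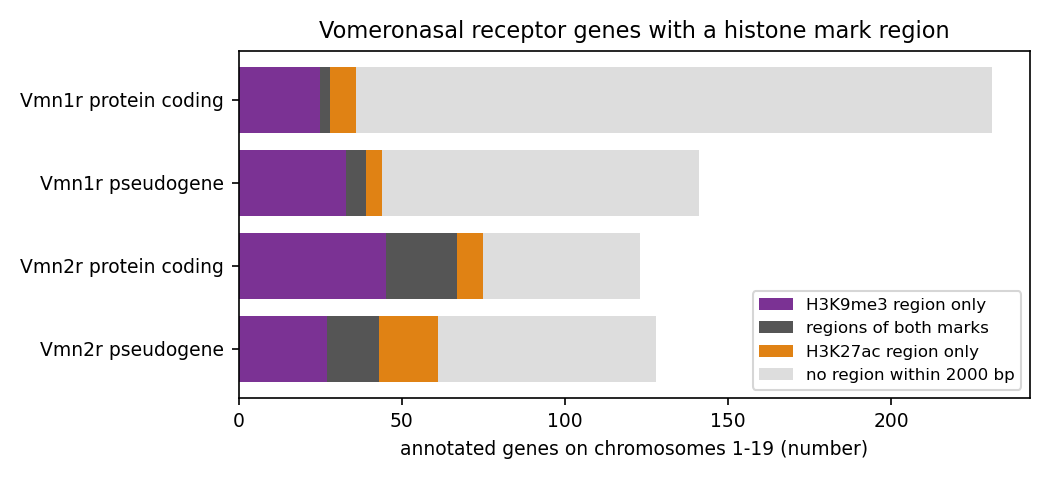
Number of annotated vomeronasal receptor genes on chromosomes 1 to 19 (x axis) by family and class (y axis), divided by the marks of the regions within 2000 bp. H3K9me3 regions alone make up the longest coloured part of each bar, as for 58 of the 80 Vmn1r and 72 of the 136 Vmn2r genes.

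H3K9me3 was the commoner mark. An H3K9me3 region lay at 177 of the 216 genes and an H3K27ac region at 86, with both at 47. There were 392 H3K9me3 regions at these genes, with a median width of 1202.5 bp against 972 bp for all 68845 regions of the mark, and up to 18 at 1 gene. There were 156 H3K27ac regions, with a median width of 1001 bp, the same as for all 135566. The strongest H3K9me3 region overlapped the gene itself in 98 cases and its flank alone in 79, and the strongest H3K27ac region in 49 and 37.

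Few regions lay on a promoter. RefSeq promoter windows (GRCm38.p6, the build of mm10, 250 bases before to 50 after the start) were at hand for 101 of the 216 genes, and H3K9me3 regions overlapped those of 6 genes and H3K27ac regions those of 2. Over all 323 windows of vomeronasal receptor genes, 1.86% were overlapped by H3K9me3, close to the 1.82% of all 31396 promoter windows, while 0.619% were overlapped by H3K27ac against 50.2% of all windows. The median number of CG dinucleotides in a receptor window was 1, against 7 in all windows.

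The 4 windows below carry the highest H3K9me3 levels among the promoters that a region overlaps, with CG in capitals, since this dinucleotide is scarce at receptor promoters and its number differs most between them. Vmn2r12 lies at chr5:109097815-109098114 (minus strand), Vmn2r29 at chr7:7278240-7278539 (minus), Vmn2r129 at chr4:156330853-156331152 (plus) and Vmn1r215 at chr13:23075542-23075841 (plus).
Vmn2r12: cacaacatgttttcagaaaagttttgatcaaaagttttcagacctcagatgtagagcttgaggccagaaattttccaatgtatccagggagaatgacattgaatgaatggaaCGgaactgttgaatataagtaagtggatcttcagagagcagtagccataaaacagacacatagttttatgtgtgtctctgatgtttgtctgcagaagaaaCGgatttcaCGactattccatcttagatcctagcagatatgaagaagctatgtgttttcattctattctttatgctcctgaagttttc
Vmn2r29: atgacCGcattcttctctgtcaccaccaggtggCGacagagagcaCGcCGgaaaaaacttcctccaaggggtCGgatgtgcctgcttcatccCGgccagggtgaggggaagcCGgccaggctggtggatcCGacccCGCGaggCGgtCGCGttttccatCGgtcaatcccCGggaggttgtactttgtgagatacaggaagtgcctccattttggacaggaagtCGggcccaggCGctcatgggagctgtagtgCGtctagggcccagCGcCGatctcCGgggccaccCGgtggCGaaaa
Vmn2r129: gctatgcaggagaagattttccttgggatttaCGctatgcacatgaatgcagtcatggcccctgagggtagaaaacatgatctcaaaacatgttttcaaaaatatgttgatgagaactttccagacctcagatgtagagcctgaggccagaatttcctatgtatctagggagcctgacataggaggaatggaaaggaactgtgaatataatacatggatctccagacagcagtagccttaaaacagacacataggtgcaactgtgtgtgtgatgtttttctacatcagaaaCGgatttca
Vmn1r215: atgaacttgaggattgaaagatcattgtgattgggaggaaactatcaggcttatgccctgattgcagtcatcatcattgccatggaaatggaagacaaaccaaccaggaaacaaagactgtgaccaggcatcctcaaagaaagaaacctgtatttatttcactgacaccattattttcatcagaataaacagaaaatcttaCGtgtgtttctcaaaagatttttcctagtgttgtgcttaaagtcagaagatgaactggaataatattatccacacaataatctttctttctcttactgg
The Vmn2r29 window holds 23 CG, the highest number of any vomeronasal receptor window, and the others hold 3 (Vmn2r12), 2 (Vmn2r129) and 1 (Vmn1r215). The octamer ATGCAAAT, bound by POU factors such as Oct4, was searched on both strands and found in none of the 4, in 11 of the 323 receptor windows (3.41%) and in 1.75% of all windows. The palindromic EBF motif, bound by factors that act in olfactory neurons, was found in 0 of the 323 receptor windows and in 0.920% of all, which says only that its letters are not in these windows.

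Levels are given as RPM per kb, the reads in the strongest region of a gene scaled to the tags kept in the library and to the length of the region. Median H3K9me3 over the 177 genes was 0.852 and 0.916 in the C2 libraries, 1.34 and 0.927 in C3 and 1.34 and 1.54 in OSKM. All regions of the mark had lower medians in each library, 0.621 and 0.753 in C2, 1.05 and 0.631 in C3, and 1.11 and 1.29 in OSKM. For a gene the strongest of up to 18 regions was taken, while all regions were used without such a choice. This can raise the values of the genes, so these medians are not like for like. Libraries of 1 group also differed in the level of the median region, most in C3, and comparisons of cells below use the authors' normalised reads instead. At 11 of the 177 genes the strongest region had 1 read, the lowest value in these tables, in every library. The same held for 11.6% of all H3K9me3 regions. By family the medians ran from 0.737 to 1.49 for Vmn1r and from 0.959 to 1.91 for Vmn2r over the libraries.

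H3K27ac was weak at these genes. Its median over the 86 genes was 0.310 and 0.141 in C2, 0.454 and 0.373 in C3 and 0.268 and 0.410 in OSKM, below the 1.17 and 0.680, 1.14 and 0.948, and 0.656 and 0.852 of all regions. At 29 of the 86 genes the strongest region stood at 1 read in all 6 libraries, so for these the region was called but holds no signal in the table. The same held for 21.7% of all H3K27ac regions. Vmn1r genes were lower (0.0365 to 0.152 over the libraries) than Vmn2r genes (0.211 to 0.662). The lowest Vmn1r median, in OSKM replicate 1, is close to the 0.0340 that 1 read gives in a region of 1001 bp. The difference between the families was not tested.

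**Figure D2:**
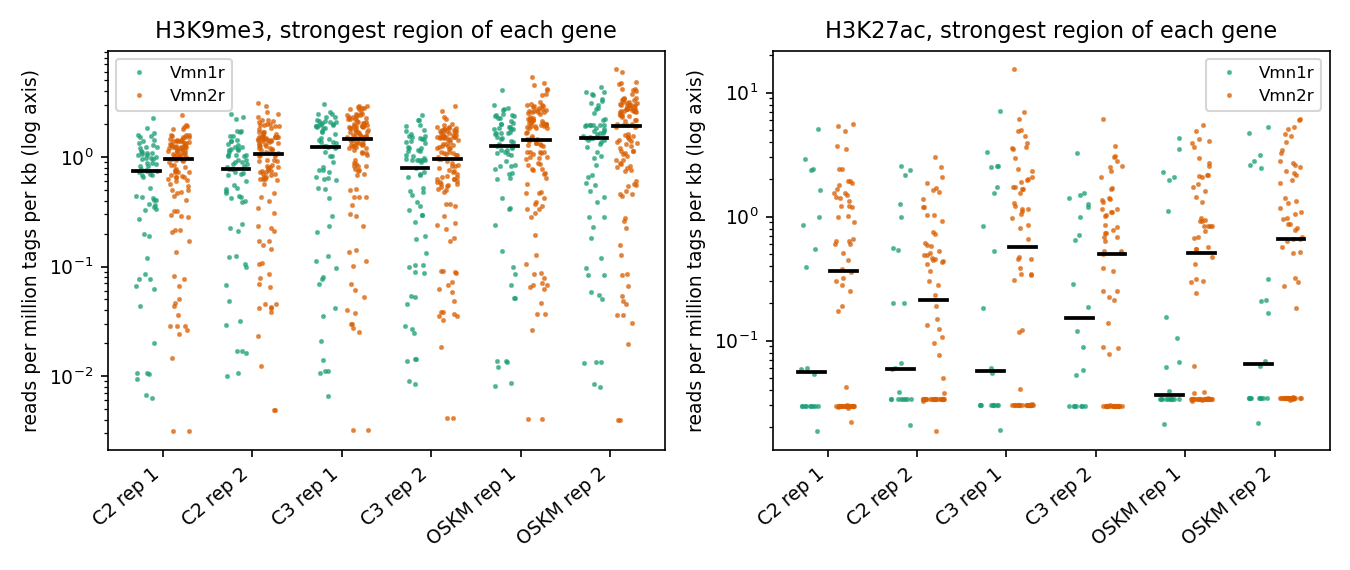
RPM per kb (y axis, log scale) of the strongest region of each gene in each library (x axis), for H3K9me3 (left, 177 genes) and H3K27ac (right, 86 genes). Each point is a gene and each black bar the median of a family, and a band of H3K27ac points lies at the level of 1 read.

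The highest H3K9me3 levels belonged to Vmn2r pseudogenes. Vmn2r-ps17 (chr4:146124687-146264826) had 1.96 and 2.94 RPM per kb in C2, 2.40 and 1.96 in C3 and 5.38 and 6.36 in OSKM. Vmn2r-ps16 (chr4:146445134-146605510) had 1.93 and 3.13, 2.80 and 1.89, and 4.17 and 4.88, and Vmn2r-ps23 on chromosome 5 averaged 2.96 over the 6 libraries. These are levels and not a comparison of cells, since on this scale the median of all regions was also highest in OSKM. Of the next 3, Vmn2r29 (2.80), Vmn1r43 (2.68) and Vmn2r-ps54 (2.60), the first is the gene with the CG-rich promoter window printed above. The strongest regions of Vmn2r-ps17 and Vmn2r-ps16 also overlap the zinc-finger genes Zfp600 and Zfp992, which lie inside the long extents annotated for these pseudogenes, so the mark cannot be assigned to the receptor copy alone.

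The highest H3K27ac levels were also mostly shared with other genes. Vmn2r-ps16 led with 5.55 and 3.02 in C2, 15.5 and 6.15 in C3 and 4.86 and 6.12 in OSKM, in a region that overlaps Zfp981. The library C3 replicate 1 was far above the others there. Vmn1r4 (mean 4.59) shares its region with Nt5c3, Vmn2r-ps19 (4.23) with Zfp982, whose promoter window the region holds, and Vmn2r-ps18 (4.10) with Zfp978. Vmn2r-ps106 (4.02) shares its region with Gm40988 and Vmn2r87 (3.57) with Gm18755. Over all 86 genes the strongest region overlapped another gene in 18, and in 7 of them it held that gene's promoter window, while for H3K9me3 it did so in 10 and 2 of 177.

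Both marks were present at 47 genes, 38 of them Vmn2r. By the lower of its mean levels, Vmn2r-ps16 came first, followed by Vmn2r-ps23 (2.96 for H3K9me3 and 2.36 for H3K27ac), Vmn1r-ps123 (2.57 and 2.31), Vmn2r85 (2.16 and 2.61), Vmn2r82 (2.01 and 2.75), Vmn1r-ps114 (1.72 and 2.34), Vmn2r12 (1.87 and 1.70), Vmn1r-ps125, Vmn2r91 (1.69 and 1.48) and Vmn2r90 (1.48 and 1.67). At Vmn2r85 the regions of both marks cover nearly the same stretch, chr10:130417112-130419877 and chr10:130417329-130420018, at the end of the gene away from its start. At Vmn1r-ps123 they lie side by side, with H3K9me3 at chr13:22994840-22998316 over the pseudogene and H3K27ac at chr13:22989943-22994449 beside it. Marks measured in a population cannot show whether they sit on the same chromosome copies.

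C2 and C3 were each compared with OSKM and with each other to ask whether receptor genes carry a different mark when artificial factors take the place of Oct4. Values are the authors' normalised reads of the strongest region in each library, and differences are log2 of normalised reads plus 1 with the standard error (SE), tested with limma over all regions and called at an adjusted p under 0.05. A call rests on these same values, so a lack of overlap between the groups at a called gene adds nothing to it. The comparisons with OSKM use the same OSKM libraries, so their values are set side by side and not counted as independent. Many of these genes have near-identical copies, and how reads that match several copies were treated is not given in the sources used here, so the assignment of reads to a single copy is uncertain.

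**Figure D3:**
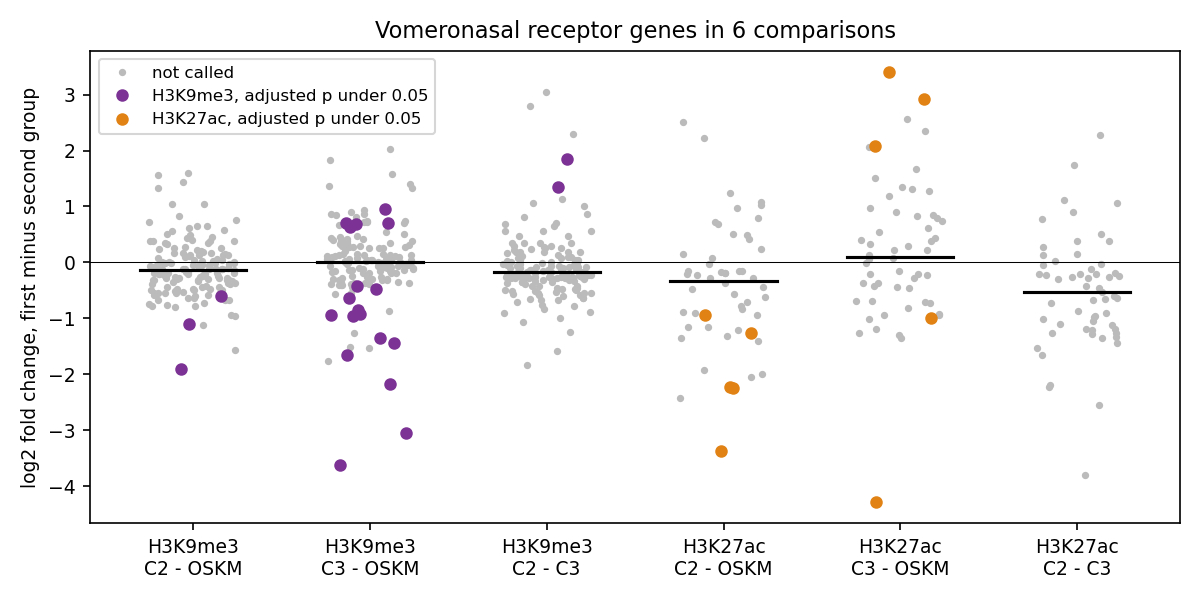
Log2 fold change of the strongest region of each tested receptor gene (y axis, first minus second group) in the 6 comparisons (x axis). Coloured points passed an adjusted p of 0.05 and black bars are medians, and the called genes in C3 against OSKM lie on both sides of 0 for both marks.

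H3K9me3 differed at few receptor genes between C2 and OSKM. Of 151 genes tested, 3 fell in C2 (1.99%) and 0 rose, against 2.95% and 0.401% of all regions. The libraries of the groups did not overlap at 81 of the 151, or 53.6%, against 47.7% of all regions, and the median difference of the genes was -0.14 against -0.15 for all regions. The 3 were pseudogenes. Without chromosome 8, 2 of 148 fell. With quantile normalization 1 fell and 1 rose, and with median-centred libraries 2 fell and 1 rose. Leaving out a C2 library raised the count to 30 without replicate 1 and 17 without replicate 2, while the share of all regions called rose from 3.35% to 16.1% and 13.0%. Without OSKM replicate 1, 1 gene and 1.04% of all regions were called.

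Vmn2r-ps89 (chr8:4529615-4538190) had 201 and 137 normalised reads of H3K9me3 in C2 and 591 and 664 in OSKM, a difference of -1.91 (SE 0.20, adjusted p = 0.000349). In the C3 table it had 217 and 336 in C3 and 659 and 727 in OSKM, a difference of -1.35 (SE 0.17, adjusted p = 0.000564). All OSKM libraries were well above the others. The gene lies on the chromosome on which OSKM stands apart, where 708 of 2621 tested H3K9me3 regions fell in C2 and 878 of 2612 in C3, so the line and the chromosome cannot be told apart here.

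Vmn1r-ps123 (chr13:22996143-22996737) had 236 and 164 reads in C2 and 435 and 408 in OSKM, and fell by 1.09 on the log2 scale (SE 0.20, adjusted p = 0.0109). Vmn2r-ps3 (chr3:64053034-64055614) had 621 and 531 in C2 and 890 and 854 in OSKM, and fell by 0.60 (SE 0.15, adjusted p = 0.046). Neither pair of groups overlaps. The call at Vmn1r-ps123 was lost without OSKM replicate 1 and after quantile normalization. That at Vmn2r-ps3 was lost under 7 of 13 alternatives: without either OSKM library, with no filter, after quantile normalization or median-centring, with edgeR and by the authors' deposited FDR.

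H3K9me3 in C3 against OSKM changed at more genes and in both directions. Of 152 genes tested, 13 fell and 5 rose, against 7.33% and 1.71% of all regions. The libraries did not overlap at 90 genes, or 59.2%, against 53.2% of all regions, and the median difference was 0.01 against -0.06 for all regions. The split moved with the scaling, to 10 lower and 13 higher after quantile normalization and to 12 lower and 10 higher with edgeR. By family, 5 of 53 Vmn1r genes fell and 2 rose, and 8 of 99 Vmn2r genes fell and 3 rose. Without chromosome 8, 11 of 149 fell and 5 rose. The counts rest on both OSKM libraries, with 9 called without OSKM replicate 1 and 5 without replicate 2, where 2.74% and 2.77% of all regions were called against 9.04% with all libraries.

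The clearest losses in C3 were at Vmn1r2 and Vmn1r238, protein-coding Vmn1r genes near the starts of their chromosomes. Vmn1r2 (chr4:3172083-3173003) had 146 and 141 reads in C3 and 517 and 403 in OSKM, or 143 ± 3.10 against 460 ± 80.9 (SD, n = 2). This was 3.17-fold lower in C3, a difference of -1.66 (SE 0.16, adjusted p = 9.44e-05 by limma). Vmn1r238 (chr18:3122492-3123412) had 124 and 132 in C3 and 769 and 436 in OSKM, 4.49-fold lower, a difference of -2.17 (SE 0.22, adjusted p = 0.000118 by limma). Both C3 libraries were under both OSKM libraries at each gene, and the calls held without each library in turn and under each other setting in which the gene's region was tested.

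In C2 neither gene was called against OSKM. In the C2 and OSKM table Vmn1r2 had 345 and 319 reads in C2 and 464 and 368 in OSKM, a difference of -0.31 (SE 0.17, adjusted p = 0.385), and Vmn1r238 had 490 and 357 against 689 and 398, a difference of -0.33 (SE 0.23, adjusted p = 0.523). In the direct comparison of C2 with C3, these were the 2 receptor genes called of 152, both higher in C2. Of all regions 0.0465% were called higher and 0.0891% lower, and the libraries did not overlap at 86 of the 152 genes, or 56.6%, against 38.3% of all regions. Vmn1r2 was higher in C2 with 300 and 282 reads against 116 and 110 in C3, a difference of 1.36 (SE 0.20, adjusted p = 0.0119). Vmn1r238 was higher with 426 and 315 against 99.0 and 103, a difference of 1.85 (SE 0.21, adjusted p = 0.00133). The C2 and C3 libraries did not overlap at either gene.

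The regions concerned lie 1609 bp and 1721 bp from the genes and not on them. They are wide, at chr4:3174612-3182149 and chr18:3113169-3120771. With the gene extent alone, 0 receptor genes were called between C2 and C3. With the flanks, edgeR called 2, and 21 of 152 had an unadjusted limma p under 0.05, a count not made over all regions.

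Other losses in C3 were smaller or nearer the floor of 1 read. Vmn2r-ps91 (chr8:71877720-71878584) had 21.5 and 3.04 reads in C3 and 124 and 109 in OSKM, a difference of -3.62 (SE 0.66, adjusted p = 0.00478). It lies on chromosome 8, and its region is 1856 bp away and holds the promoter window of Gm5373. Vmn1r261 (chr6:3143644-3144564) had 2.58 and 1.52 in C3 and 26.6 and 21.7 in OSKM, a difference of -3.06 (SE 0.80, adjusted p = 0.0329) that depends on the pseudocount at such low reads. Vmn2r-ps106, whose region holds the promoter window of Gm40988, had 30.2 and 21.3 against 69.4 and 71.5, a difference of -1.44 (SE 0.37, adjusted p = 0.0317). All 3 calls were lost without either OSKM library.

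Some long pseudogenes and coding Vmn2r genes fell by less, from high levels. Vmn2r-ps17 had 362 and 404 reads in C3 and 722 and 737 in OSKM, a difference of -0.93 (SE 0.11, adjusted p = 0.000376), and the call held under every alternative run. In C2 it had 409 and 473 against 648 and 673, a difference of -0.59 that missed the threshold (SE 0.15, adjusted p = 0.058). Vmn2r85 (chr10:130418261-130429612) had 165 and 159 in C3 and 299 and 336 in OSKM, a difference of -0.97 (SE 0.15, adjusted p = 0.00209), lost without OSKM replicate 2. On chromosome 13, Vmn1r208 fell by 0.94 (SE 0.22, adjusted p = 0.02, lost without either OSKM library). Of the remaining lower genes, Vmn1r-ps130, Vmn2r12, Vmn2r-ps16 and Vmn2r-ps3 differed by -0.85, -0.63, -0.47 and -0.42. Each of these 4 calls was lost without OSKM replicate 2, those at Vmn2r12, Vmn2r-ps16 and Vmn2r-ps3 also without OSKM replicate 1, and that at Vmn2r12 without C3 replicate 2 too. Those 3 were also lost after quantile normalization and by the authors' deposited FDR, and Vmn2r-ps3 after median-centring and with edgeR too. At another region of Vmn2r-ps16 the difference was 0.99, in the other direction.

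All 5 gains of H3K9me3 in C3 were under 2-fold on the read scale, that is 1.94-fold or less. Vmn1r-ps48 (chr7:10300488-10301379) had 290 and 299 reads in C3 and 146 and 156 in OSKM, a difference of 0.96 (SE 0.15, adjusted p = 0.00236), which held under every alternative. In C2 it had 213 and 142 against 131 and 142, a difference of 0.35 (SE 0.24, adjusted p = 0.496). Vmn2r104 (chr17:20029425-20048205), a protein-coding gene whose region also overlaps Gm3547, had 687 and 614 in C3 and 434 and 378 in OSKM, a difference of 0.68 (SE 0.12, adjusted p = 0.00411). Vmn2r60 (chr7:42116471-42195776) had 557 and 515 against 358 and 302, a difference of 0.70 (SE 0.13, adjusted p = 0.005). Both were lost without OSKM replicate 2. Vmn2r125 and Vmn1r-ps96 rose by 0.70 and 0.63 and were lost without either OSKM library, without C3 replicate 2 and by the authors' deposited FDR, and Vmn2r125 also with the gene extent alone.

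**Figure D4:**
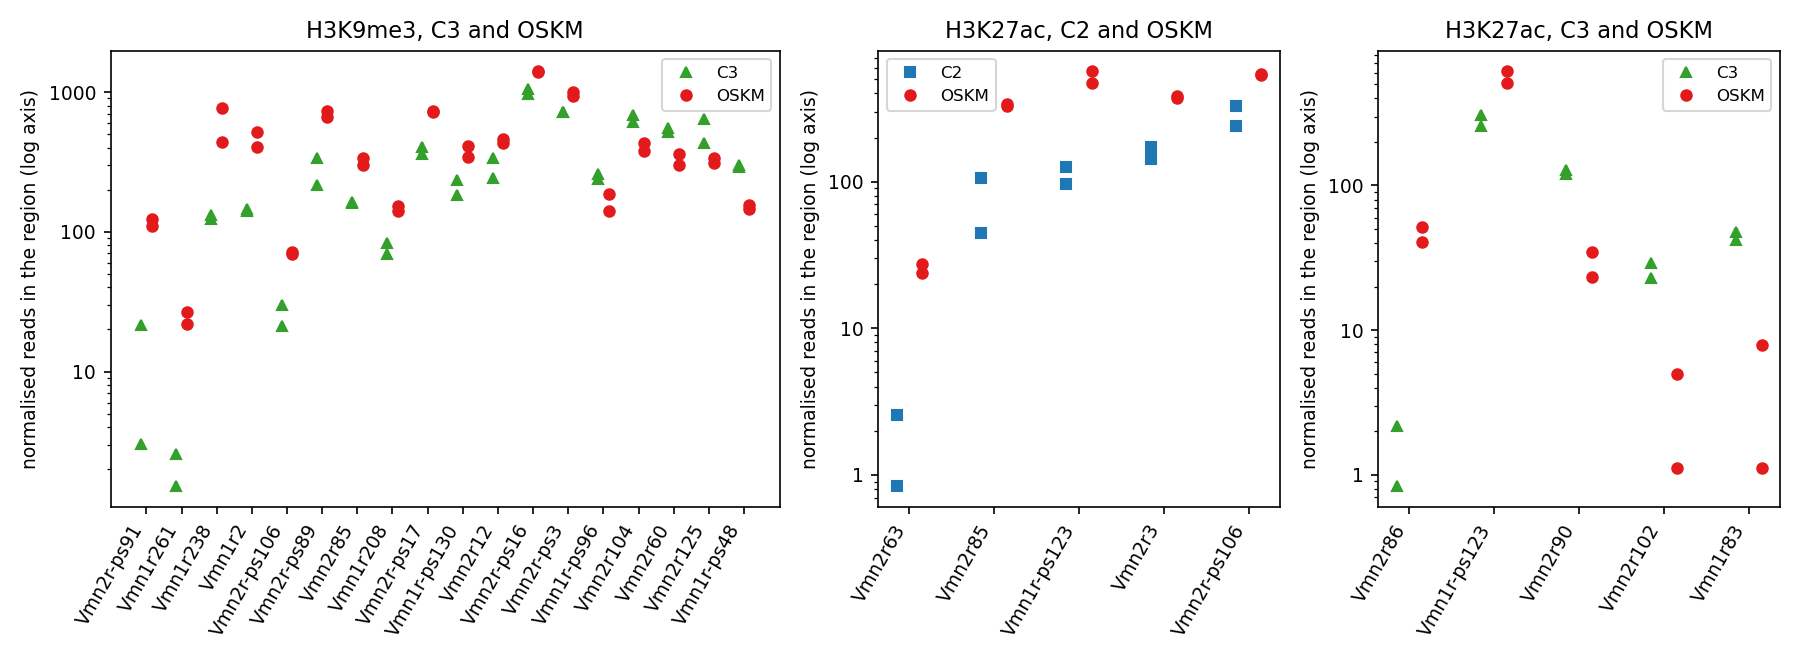
Normalised reads (y axis, log scale) in each library of the receptor genes called in 3 comparisons: H3K9me3 in C3 against OSKM (18 genes), and H3K27ac in C2 and in C3 against OSKM (5 genes each), ordered by log2 fold change. Each point is a library. The libraries of the groups do not overlap at any gene shown, which adds nothing, since the genes were picked by their calls. Over all regions they do not overlap at 53.2%, 59.2% and 63.4% in these comparisons.

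H3K27ac fell at 5 of 52 receptor genes tested in C2 against OSKM and rose at 0. Of all regions 5.33% fell and 5.20% rose, and the libraries did not overlap at 30 of the 52 genes, or 57.7%, against 59.2% of all regions. The median difference of the genes was -0.33 against -0.01 for all regions, with 37 of 52 below 0. After quantile normalization 2 fell and 1 rose. The other 34 of the 86 genes with an H3K27ac region were among the lowest 25% of regions and were not tested.

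Vmn1r-ps123, where H3K9me3 fell too, had 126 and 96.2 H3K27ac reads in C2 and 473 and 565 in OSKM, 4.66-fold lower, a difference of -2.22 (SE 0.23, adjusted p = 0.00962). In C3 it had 310 and 259 against 514 and 615, a difference of -0.99 (SE 0.22, adjusted p = 0.0188). The C2 libraries were the lowest and OSKM the highest, with a C2 against C3 difference of -1.20 (SE 0.30, adjusted p = 0.150). The C2 call held under every alternative, and the C3 call was lost without either OSKM library and by the authors' deposited FDR.

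Vmn2r85 had 106 and 44.9 reads in C2 and 339 and 327 in OSKM, a difference of -2.25 (SE 0.37, adjusted p = 0.0166). In C3 it had 270 and 130 against 369 and 355, a difference of -0.95 (SE 0.34, adjusted p = 0.081). The C2 libraries were under both OSKM libraries, and the call was lost after quantile normalization (adjusted p = 0.0576). At this gene C2 was called lower for H3K27ac and C3 for H3K9me3. The C2 difference in H3K9me3 was -0.63 (SE 0.20, adjusted p = 0.120).

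Vmn2r3 (chr3:64258961-64287426), a protein-coding gene with no H3K9me3 region, had 171 and 142 reads in C2 and 384 and 372 in OSKM, a difference of -1.27 (SE 0.21, adjusted p = 0.0165). It held under every alternative, and in C3 the difference was -0.37 (SE 0.21, adjusted p = 0.246). Vmn2r-ps106, whose region overlaps Gm40988, had 330 and 240 against 547 and 531, a difference of -0.93 (SE 0.22, adjusted p = 0.0367). Vmn2r63 had 0.841 and 2.57 in C2 and 27.4 and 23.7 in OSKM, close to the floor, a difference of -3.37 (SE 0.84, adjusted p = 0.0422), while C3 had 42.7 and 33.8. Both were lost without either OSKM library and after quantile normalization, Vmn2r63 also without C2 replicate 1 and with no filter, and Vmn2r-ps106 also by the authors' deposited FDR.

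In C3 against OSKM, H3K27ac rose at 3 and fell at 2 of 56 genes tested, against 13.5% and 8.52% of all regions. The libraries did not overlap at 36 genes, or 64.3%, against 63.4% of all regions. The median difference was 0.10 against 0.03. With libraries centred on their medians the split was 3 higher and 6 lower. Without OSKM replicate 1, 2 genes and 17.1% of all regions were called, and without C3 replicate 1, 10 genes and 21.7%.

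Vmn2r90 (chr17:17703941-17734167) had 120 and 129 reads in C3 and 23.2 and 34.8 in OSKM, 4.25-fold higher, a difference of 2.09 (SE 0.36, adjusted p = 0.00789). Its call held under every alternative, and in C2 it had 53.0 and 34.6 against 21.3 and 31.9, a difference of 0.69 (SE 0.49, adjusted p = 0.381). Vmn2r102, also on chromosome 17, had 29.3 and 22.9 against 1.10 and 4.96 (2.93, SE 0.81, adjusted p = 0.0373), and Vmn1r83 on chromosome 7 had 41.8 and 48.0 against 1.10 and 7.94 (3.40, SE 0.85, adjusted p = 0.0266). In both of these 1 OSKM library stood at 1 read, and the calls were lost without either C3 library, without OSKM replicate 1 and after quantile normalization, with Vmn2r102 also lost with no filter. Vmn2r86 (chr10:130446199-130455894) went the other way with 0.837 and 2.18 reads in C3 and 51.9 and 40.7 in OSKM, a difference of -4.28 (SE 0.74, adjusted p = 0.00807). The H3K27ac region of Vmn2r86 lies 1019 bp from the gene and overlaps Gm18754, C3 replicate 1 is at the floor of 1 read, and the call held under every alternative.

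Between C2 and C3, 0 of 57 receptor genes were called for H3K27ac by limma, against 0.0276% higher and 0.0305% lower of all regions. edgeR on the recovered reads also called 0, while 10 had an unadjusted limma p under 0.05, a count not made over all regions. The libraries did not overlap at 27 genes, or 47.4%, against 41.6% of all regions. The median difference was -0.53 against -0.06 for all regions, with 44 of 57 below 0. It was also -0.53 over the 55 olfactory receptor genes tested, so it is not particular to vomeronasal receptors. On simulated data for this comparison the fit recovered 48% of 4-fold and 6% of 2-fold changes.

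The authors' peak files count peaks in each library on its own. H3K9me3 peaks lay within 2000 bp of 157 of the 216 genes in both OSKM libraries, 121 in both C3 libraries and 111 in both C2 libraries, and of 100 genes in all 6. At 10 genes both OSKM libraries had a peak and no C2 or C3 library did, and 0 genes had this pattern for C2 or C3. This pattern was not counted over all genes. Nearly all receptor genes with an OSKM peak were among the 216, with 163 of 163 in replicate 1 and 169 of 175 in replicate 2. A peak in OSKM alone may thus bring a gene into the set, so the pattern is not independent of how the genes were chosen. The OSKM libraries also had more H3K9me3 peaks in all, 90392 and 93735 against 69446 and 64028 in C2, while the C3 libraries had 96055 and 56350. For each receptor gene the peak with the highest pileup was taken. Over these peaks the median of the authors' fold enrichment was 4.87 and 4.73 in C2, 5.87 and 5.04 in C3, and 7.20 and 7.07 in OSKM. Over all peaks of the mark, without such a choice, it was 3.90 and 4.18 in C2, 4.11 and 4.25 in C3 and 4.41 and 4.48 in OSKM. The choice can raise the values at the genes, so these medians are not like for like. The redundant fraction of the tags was 0.36 and 0.42 in the OSKM libraries and 0.24 to 0.31 in the others, and its part in these counts was not tested.

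H3K27ac peaks lay at 41 genes in both OSKM libraries, 47 in both C3 and 30 in both C2, and at 28 in all 6. In C2 replicate 2, the library with the lowest number of H3K27ac peaks (76915), 32 genes had one. Most of these genes were Vmn2r, with 35 of 41 in OSKM, 40 of 47 in C3 and 27 of 30 in C2.

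**Figure D5:**
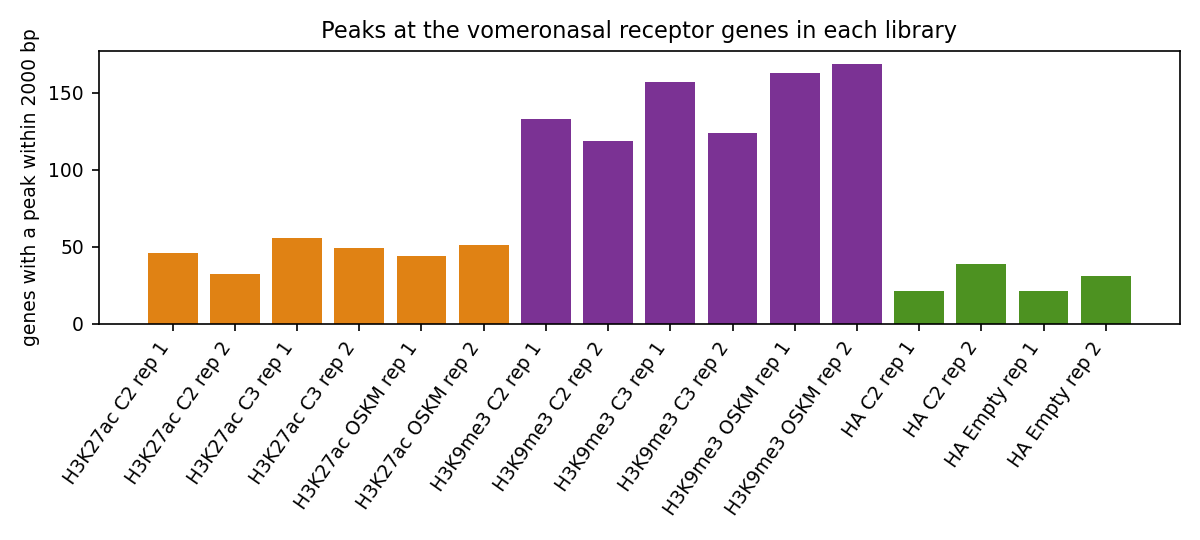
Number of the 216 receptor genes (y axis, from 0) with a peak of the authors within 2000 bp in each library (x axis). Bars for H3K9me3 reach 119 to 169 genes, those for H3K27ac 32 to 56 and those for HA 21 to 39, with C2 and Empty alike in range for HA.

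The HA tag gave no pattern at the receptor genes that set C2 apart from Empty. Peaks of both C2 libraries lay at 17 genes and of both Empty libraries at 16, all of them Vmn2r. Vmn2r genes are the longer ones, and the part of length was not tested. The number of HA peaks in all also differed, with 12376 and 44939 in C2 and 10666 and 22632 in Empty. Only Vmn2r-ps17 had a peak in both C2 libraries and in neither Empty library. Those peaks were at chr4:146125031-146125570 in replicate 1 and chr4:146186934-146187245 in replicate 2, at different places in a long extent, with a pileup of 9 and 8 fragments. In the HA libraries a fraction of 0.92 to 0.94 of the tags was redundant, and few tags remained.

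Other genes of the vomeronasal system were looked at in the same tables. All 12 signalling genes had an H3K27ac region, with a median difference of -0.47 in C2 and -0.44 in C3, against -0.01 and 0.03 for all regions. Of the 12, 2 rose and 1 fell in C2, against 5.20% and 5.33% of all regions. In C3 2 rose and 0 fell, against 13.5% and 8.52%. The 2 that rose in both were Ano1 and Ano2, chloride channels of the sensory response. Ano1 had 95.8 and 55.2 reads in C2 against 11.2 and 12.8 in OSKM (2.51, SE 0.51, adjusted p = 0.0255), and 146 and 81.8 in C3 against 12.1 and 13.9 (2.98, SE 0.47, adjusted p = 0.00642). Ano2 rose by 1.35 in C2 and by 1.86 in C3. Both calls in C3 held under every alternative run, and in C2 they were lost without C2 replicate 1, with Ano2 also lost without C2 replicate 2 and OSKM replicate 2. The channel gene Kcnj6 fell in C2 (-1.16, SE 0.23, adjusted p = 0.0246, lost without OSKM replicate 1). For H3K9me3, 1 of 5, the G protein gene Gnao1 on chromosome 8, fell in both (lost without either OSKM library). Of all H3K9me3 regions 2.95% fell in C2 and 7.33% in C3.

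Of 12 transcription factors of vomeronasal neurons, 10 were tested for H3K27ac, and 2 fell in C2 while 3 fell and 1 rose in C3. Of all regions 5.33% fell in C2, and 8.52% fell and 13.5% rose in C3. Bcl11b, needed for sensory neuron differentiation, fell by 2.03 in C2 and by 1.68 in C3 (adjusted p = 0.00942 and 0.00648) under every alternative run, and Meis2 fell by 1.01 and 0.90 (both lost without either OSKM library). In C3 Neurog1 fell by 2.90 and Ebf1 rose by 1.62 (adjusted p = 0.0196 and 0.00616). These factors act in many tissues, so the regions are not particular to the vomeronasal organ.

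Among 37 genes of the protein ligands Mup and Esp, 4 had an H3K27ac region and 8 an H3K9me3 region. Mup5 had 86.6 and 26.9 H3K27ac reads in C2 and 151 and 48.0 in C3, and about 1 in each OSKM library, with differences of 4.65 and 5.40 (adjusted p = 0.0214 and 0.00555). Mup4 fell in C2 by 0.91 (adjusted p = 0.0425, lost without either OSKM library). H3K9me3 fell in C3 at Esp8 and Mup20 by 1.37 and 0.59 (adjusted p = 0.0381 and 0.0495, both lost without either OSKM library and without C3 replicate 2). Of 14 formyl peptide receptor and H2-Mv genes, 1 had a region of each mark, and 0 were called.

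The olfactory receptors, the larger chemoreceptor family, had H3K9me3 calls in C3 against OSKM at 1 of 137 higher and 6 lower, against 1.71% and 7.33% of all regions. In C2 0 of 137 rose and 1 fell, against 0.401% and 2.95%. For H3K27ac in C3, 14 of 52 rose and 0 fell, against 13.5% and 8.52% of all regions, with a median difference of 0.95 against 0.03. In C2 1 of 51 rose and 1 fell, against 5.20% and 5.33%. The difference between olfactory and vomeronasal receptors was not tested. After quantile normalization the C2 calls for H3K27ac at Ano1, Ano2, Kcnj6, Meis2, Mup4, Mup5 and Tas2r141-ps4 were lost, as was Neurog1 in C3, while Bcl11b was kept. In the other families, H3K27ac at the taste receptor pseudogene Tas2r141-ps4 rose in C2 and C3 by 3.88 and 5.11 (adjusted p = 0.0428 and 0.00478), and H3K9me3 at Taar7c-ps fell in C3 by 0.46 (adjusted p = 0.0122, lost without either OSKM library).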

How the data were processed

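The submitters' processing notes name mm10, SAMtools 1.3, Bowtie2 2.2.5, CASAVA 1.8.2 and DiffBind 1.16.2. MACS 2.1.0.20150731 (histone marks) or 2.1.1.20160309 (HA) called the peaks of single libraries against inputs at a q-value of 0.01, per the file headers. Their deposited pileup is a signal, their deposited -log10 p-value and -log10 q-value measure significance, and the deposited fold enrichment is a ratio. The authors deposited 6 region tables, in which the signal of 4 libraries is in normalised reads, beside their log2 fold change, FDR and p-value. Within a tolerance of 1e-06, 100% of these values were whole multiples of 1 read. Any subtraction of control reads is not given in the sources used here.

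Genes took the region with the highest mean RPM among those within 2000 bp. Each table was fitted alone with limma 3.58.1 (R 4.3.3) on log2 of normalised reads plus 1, without the 25% of regions lowest by mean, with Benjamini-Hochberg adjustment over 51633 (H3K9me3) or 101285 to 101600 (H3K27ac) regions. Alternatives were the filter, the pseudocount, the scaling, a replicate block, edgeR 4.0.16 on recovered reads, the authors' FDR, each library left out, and the region rule. On simulated data the fit recovered 48% to 90% of 4-fold and 6% to 42% of 2-fold changes, with 2.56% to 4.95% of calls false. The changes were placed only in regions above the median level, so recovery in weaker regions was not measured. In each comparison 200 regions were changed, while in the data up to 22.0% of regions were called (H3K27ac, C3 against OSKM). No shift of a library or of chromosome 8 was simulated, so the rates may differ in the data. Other steps used Python 3.11.15, NumPy 2.4.6, pandas 2.3.3 and matplotlib 3.10.9.

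Genes and lists were chosen with earlier results of these data known. Named genes were those called (at most 10 in each direction by size, and others after their values were seen), the 6 highest in each mark, the 10 with both marks, those with HA peaks in C2 alone, and at most 6 called genes in each other list. Gene names, extents and promoter sequences are RefSeq's (GRCm38.p6). Input samples were not analysed on their own, and other per-sample columns numbered 0.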

Additional observations from a re-analysis of the deposited data

How the results depend on the processing

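Counts of called receptor genes moved with several settings, as did the share of all regions called (in parentheses), and the cause was not tested. For H3K9me3 in C2 against OSKM (3 called), there were 5 with a pseudocount of 8 (4.61%), 7 with the replicate block (6.70%), 5 with any region of the gene, and 1 to 30 when a library was left out (0.949% to 16.1%). In C3 against OSKM (18), there were 8 with the gene extent alone, since fewer regions qualify, and 5 to 25 when a library was left out (2.74% to 16.3%). In C2 against C3 (2), there were 4 with the replicate block (0.928%), 5 by the authors' deposited FDR (0.995%), 0 with the gene extent alone, and 2 to 6 when a library was left out (0.138% to 1.25%). For H3K27ac in C2 against OSKM (5), there were 3 after quantile normalization (3.36%), 8 with the replicate block (16.9%), 8 by the authors' FDR (13.2%), and 4 to 13 when a library was left out (6.34% to 24.7%). In C3 against OSKM (5), there were 9 with no filter (17.7%), 8 with a pseudocount of 8 (25.6%), 9 with median-centred libraries (24.5%), 9 with the replicate block (27.2%), 8 with edgeR (23.4%), 9 by the authors' FDR (21.2%), 2 with the gene extent alone, and 2 to 10 when a library was left out (17.1% to 22.6%). In C2 against C3 (0), there were 4 with no filter (2.01%), 11 with the replicate block (13.4%), 1 by the authors' FDR (1.79%), and 0 to 7 when a library was left out (0.320% to 8.86%).

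Same-numbered libraries deviated together most in H3K27ac C2 and C3 (correlation 0.346, others -0.054 to 0.100), and the 2 pairs share only a number, so the block is no paired design. Quantile normalization moved the median of all H3K9me3 regions in C2 against OSKM from -0.15 to 0.02, and median-centring that of H3K27ac from -0.01 to -0.14 in C2 and from 0.03 to -0.14 in C3. No called receptor gene changed direction under a scaling. Vmn2r-ps16 reversed in C3 against OSKM with any region of the gene (0.99 at another region). With the gene extent alone, peaks of both libraries lay at 73 (C2) and 100 (OSKM) genes for H3K9me3, and at 15, 28 and 20 (C2, C3, OSKM) for H3K27ac. With a -log10 q of at least 5, HA peaks lay at 9 genes in C2 and 6 in Empty. Alternatives for genes of the other lists were added after seeing the data.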

Other observations

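The 2 receptor genes that differed between C2 and C3 in H3K9me3, Vmn1r2 and Vmn1r238, both lie in the first 4000000 bases of their chromosomes, which was noticed after their values were seen. So do Vmn1r3 and Vmn1r261. At Vmn1r3 C3 had 0.687 and 1.18 reads and C2 7.99 and 27.1 (3.05, SE 1.07, limma adjusted p = 0.512). At Vmn1r261 C3 had 2.06 and 1.18 and C2 9.98 and 13.5 (2.29, SE 1.01, limma adjusted p = 0.615). Both C3 values at Vmn1r3 and that of C3 replicate 2 at Vmn1r261 are at the floor of 1 read. Vmn1r2 and Vmn1r238 are named because they were called, so the lack of overlap of their libraries adds nothing. The Vmn1r3 region (chr4:3182166-3182805) starts just after the Vmn1r2 region ends at 3182149. C2 and C3 libraries did not overlap at 38.3% of all regions and at 56.6% of the receptor genes tested. Both C3 libraries were under both C2 libraries at Vmn1r3 and Vmn1r261 too, and so at all 4 genes. The other receptor genes near a chromosome start did not share this, with 31.6 and 35.5 in C3 and 30.9 and 29.5 in C2 at Vmn2r-ps88, and 92.8 and 61.6 against 81.8 and 46.8 at Vmn1r-ps151. Over all tested regions ending before that base, 3 of 756 were higher in C2 than in C3 and 0 lower. The sequences of the 4 genes were not compared here, so whether they share reads is not known, and they cannot be counted as independent.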
